A study of Equisetum hyemale and Pteris vittata and Marchantia polymorpha with 22 samples.

Results

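The thallus of *Marchantia polymorpha*, a liverwort with a haploid plant body and no vascular tissue, was compared after 8 h in darkness at 1% O2 (hypoxia) and at 21% O2 (air). All libraries of the species were taken, which gave 2 hypoxia and 2 air libraries of the 22 libraries in the series. The plants were of the accession Cambridge-2 (Cam-2), each was subcultured from a gemma, and each library was made from the mRNA of 3 thalli. Darkness was common to both groups, so the groups differed in oxygen as labelled, in plants without light. The labels call the tissue shoot, whereas the study's methods speak of thalli, and the series text names mature sporophytes (n), although the sporophyte of a liverwort is diploid. Loci matched to genes of photosynthetic cells were abundant in every library. The 19 loci whose best hit is a Rubisco small subunit or Rubisco activase summed to between 9945 and 11533 CPM (read counts scaled to a common library total). None of them was called changed, with 2 above and 1 below air at an unadjusted p under 0.05 by limma. The share of all genes at that unadjusted p was not counted, here or for the lists below. Such counts are therefore not read as a change of a list.

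Oxygen accepts the electrons of mitochondrial respiration, and without it a plant cell draws its ATP from glycolysis. Pyruvate decarboxylase and alcohol dehydrogenase, or lactate dehydrogenase, then return the NAD+ that glycolysis needs, while sucrose synthase opens sucrose at a lower cost in ATP than invertase does. In flowering plants, group VII ethylene response factors (ERFVII) switch on such genes after plant cysteine oxidases, which need O2, stop marking these factors for breakdown. Many other enzymes take O2 as a substrate, among them cytochromes P450, fatty acid desaturases, lipoxygenases and the dioxygenases that cut carotenoids.

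A small share of genes passed the call threshold under hypoxia, in both directions. Of 13572 genes tested, 200 rose (1.47%) and 183 fell (1.35%), where a call required a limma adjusted p of 0.01 or less (Benjamini-Hochberg over all genes) and an absolute log2 fold change above 1 on the log2(CPM + 1) scale. This scale understates the change of genes with low values. At that adjusted p with no minimum fold change, 473 genes were higher and 410 lower. Both hypoxia libraries lay above both air libraries in 30.1% of genes and below both in 30.4%. The shares of all genes called or separated in this way are the background for the lists below. The log2 fold changes of called genes reached 2.61 among those that rose and -2.76 among those that fell, and in 22 and 18 of them the group means differed more than 4-fold. Genes that rose took 1.23% and 1.24% of all CPM in air and 2.73% and 3.06% under hypoxia. Those that fell went from 0.861% and 0.868% to 0.372% and 0.299%. A mean above 100 CPM was found for 47 of the genes that rose and for 12 of those that fell. Hypoxia replicate 2 lay farther from air than hypoxia replicate 1 in 148 of the 200 genes and in 146 of the 183.

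The calls rest on 4 libraries, and the loss of an air library ended most of them. Without air replicate 1, 26 genes were called higher and 6 lower, and without air replicate 2 the counts were 5 and 2. Without hypoxia replicate 1 they were 271 and 359, and without hypoxia replicate 2 they were 169 and 167. All 383 called genes kept their direction in each of these fits. Where the groups of a gene do not overlap, its direction cannot turn when 1 library is left out, so this says little about stability. Of the 383, 336, 340, 364 and 291 kept a log2 fold change beyond 1 without air replicate 1, air replicate 2, hypoxia replicate 1 and hypoxia replicate 2. The sources do not say whether the replicates came from separate cultures or days, so the p-values measure the spread between these samples only. In whole thalli, a change in the number of cells of a type and a change in RNA per cell cannot be told apart.

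**Figure D1:**
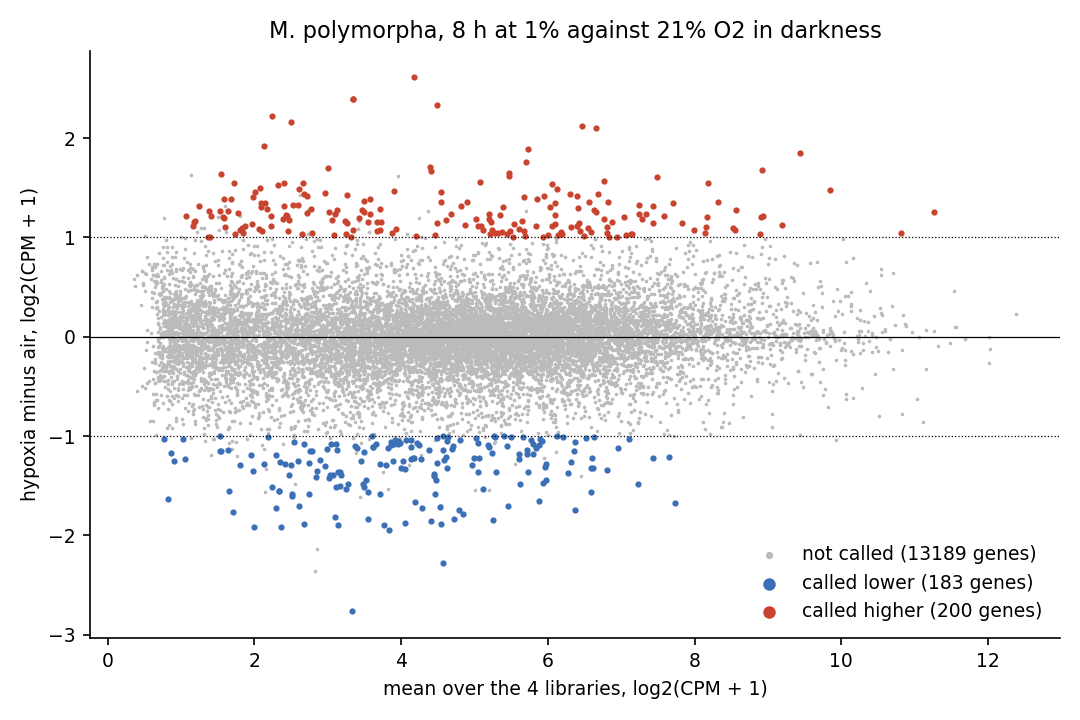
Each dot is 1 of the 13572 genes, placed by its mean over the 4 libraries (horizontal axis, log2(CPM + 1)) and by the log2 difference of hypoxia minus air (vertical axis), with dotted lines at 1 and -1. The 200 genes called higher (red) and the 183 called lower (blue) lie between log2 differences of 2.61 and -2.76.

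In sucrose entry, 1 sucrose synthase locus rose and 1 neutral invertase locus fell, while the median log2 fold change of the list was 0.04. Among 5 loci for sucrose synthase and invertases, 1 rose, 1 fell and 3 were not called, where 1.47% of all genes rose and 1.35% fell. The sucrose synthase locus Mapoly0122s0057 (SUS3 hit) had 1132 and 1388 CPM in air and 2564 and 2632 under hypoxia, a log2 fold change of 1.05 ± 0.16 (SE, n = 2 per group, limma adjusted p = 0.005). A neutral invertase, Mapoly0099s0039, which splits sucrose with water, fell from 78.0 and 77.9 to 25.3 and 21.3 CPM, by 1.70 ± 0.11 on the log2 scale (limma adjusted p = 0.00069). The groups did not overlap at either locus. SPS3F hit Mapoly0109s0040, for the sucrose phosphate synthase that makes sucrose, was picked after its values were seen and fell from 82.0 and 88.2 to 40.8 and 38.1 CPM (log2 fold change -1.09). Sucrose synthase was no longer called without air replicate 1, air replicate 2 or hypoxia replicate 2, and the invertase was no longer called without air replicate 2.

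Glycolysis rose at the phosphofructokinase step and at phosphoglycerate kinase, while most of its enzymes were not called. Of 35 glycolytic loci, 4 rose, none fell and 31 were not called, where 1.47% of all genes rose and 1.35% fell. The median log2 fold change of these loci was 0.11, against -0.00 over all genes. In 19 of them both hypoxia libraries lay above both air libraries and in 9 both lay below, against 30.1% and 30.4% of all genes. Among 5 loci for ATP-dependent phosphofructokinase, which commits sugar phosphate to glycolysis, 3 rose and their median log2 fold change was 1.06. PFK2 hit Mapoly0101s0051 went from 61.8 and 61.4 to 151 and 188 CPM, a log2 fold change of 1.43 ± 0.12 (limma adjusted p = 0.00093). Its neighbour Mapoly0101s0050, with the same best hit, went from 14.7 and 13.6 to 27.3 and 38.5 CPM, a log2 fold change of 1.14. PFK3 hit Mapoly0031s0093 went from 49.6 and 48.7 to 95.3 and 113, with a log2 fold change of 1.06. By contrast, neither of the 2 loci for the pyrophosphate-dependent enzyme, which catalyses the same step without ATP, was called, and both lay below air with a median of -0.32.

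Further down the pathway, phosphoglycerate kinase, which forms ATP, was the only enzyme with a called locus. Mapoly0003s0167 rose from 329 and 311 to 701 and 787 CPM, a log2 fold change of 1.21 ± 0.12 (limma adjusted p = 0.0012). GAPC2 hit Mapoly0206s0011, for the dehydrogenase that precedes it, was picked after its values were seen. It had 771 and 707 CPM in air and 1438 and 1482 under hypoxia, and its log2 fold change of 0.98 stood just under the threshold. FBA2 hit Mapoly0053s0082, an aldolase with the highest mean CPM of the list, had a log2 fold change of 0.46 and was not called. All 6 pyruvate kinase loci had log2 fold changes between 0.05 and 0.40. The glycolytic calls did not hold without an air library. Without hypoxia replicate 2, 2 glycolytic loci had a log2 fold change above 1. The groups did not overlap at the 4 called loci, so their direction could not turn with 1 library left out.

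Enzymes that connect phosphoenolpyruvate, malate, pyruvate and pyrophosphate were listed after values had been seen. Of 14 loci, 3 rose and none fell, against 1.47% and 1.35% of all genes, with a median log2 fold change of 0.31. PCK1 hit Mapoly0049s0126, for phosphoenolpyruvate carboxykinase, rose from 1512 and 1661 to 3238 and 4421 CPM, a log2 fold change of 1.25 ± 0.20 (limma adjusted p = 0.0051). This locus had the highest mean CPM of all genes that rose. NADP-ME4 hit Mapoly0169s0005, a malic enzyme that releases pyruvate from malate, went from 62.2 and 56.3 to 115 and 135 CPM (log2 fold change 1.06). PPa1 hit Mapoly0065s0068, a soluble pyrophosphatase, went from 290 and 230 to 539 and 553 CPM (log2 fold change 1.08). A further PCK1 hit, Mapoly0012s0074, had a log2 fold change of 0.64, and the pyruvate orthophosphate dikinase locus Mapoly0009s0124 had 0.55. Neither was called. None of the 3 calls held without an air library, and 1 held without hypoxia replicate 2.

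In fermentation, the only call was at the entry enzyme. Of 6 loci, 1 rose and 5 were not called, where 1.47% of all genes rose and 1.35% fell. The pyruvate decarboxylase locus Mapoly0160s0004 (MpPDC2) had 289 and 249 CPM in air and 944 and 789 under hypoxia, a log2 fold change of 1.68 ± 0.14 (limma adjusted p = 0.00093). Its group means differed 3.22-fold, and the call was lost only without air replicate 2. Mapoly0095s0010, with the same best hit and picked after values were seen, had a log2 fold change of 0.01. ADH1 hit Mapoly0154s0033, for the alcohol dehydrogenase that turns acetaldehyde into ethanol, had 14.0 and 15.2 CPM in air and 13.4 and 12.5 under hypoxia (log2 fold change -0.16 ± 0.12, limma adjusted p = 0.42). The lactate dehydrogenase locus Mapoly0049s0082 was at 90.1 and 80.1 CPM in air and 92.5 and 111 under hypoxia. ALAAT2 hit Mapoly0036s0030, for the alanine aminotransferase that diverts pyruvate to alanine, was at 1121 and 1106 against 1406 and 1290 CPM. Hypoxia lay above air at both of these loci, by 0.25 and 0.27 on the log2 scale, and neither was called. The alcohol and lactate dehydrogenase loci were picked after their values were seen.

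**Figure D2:**
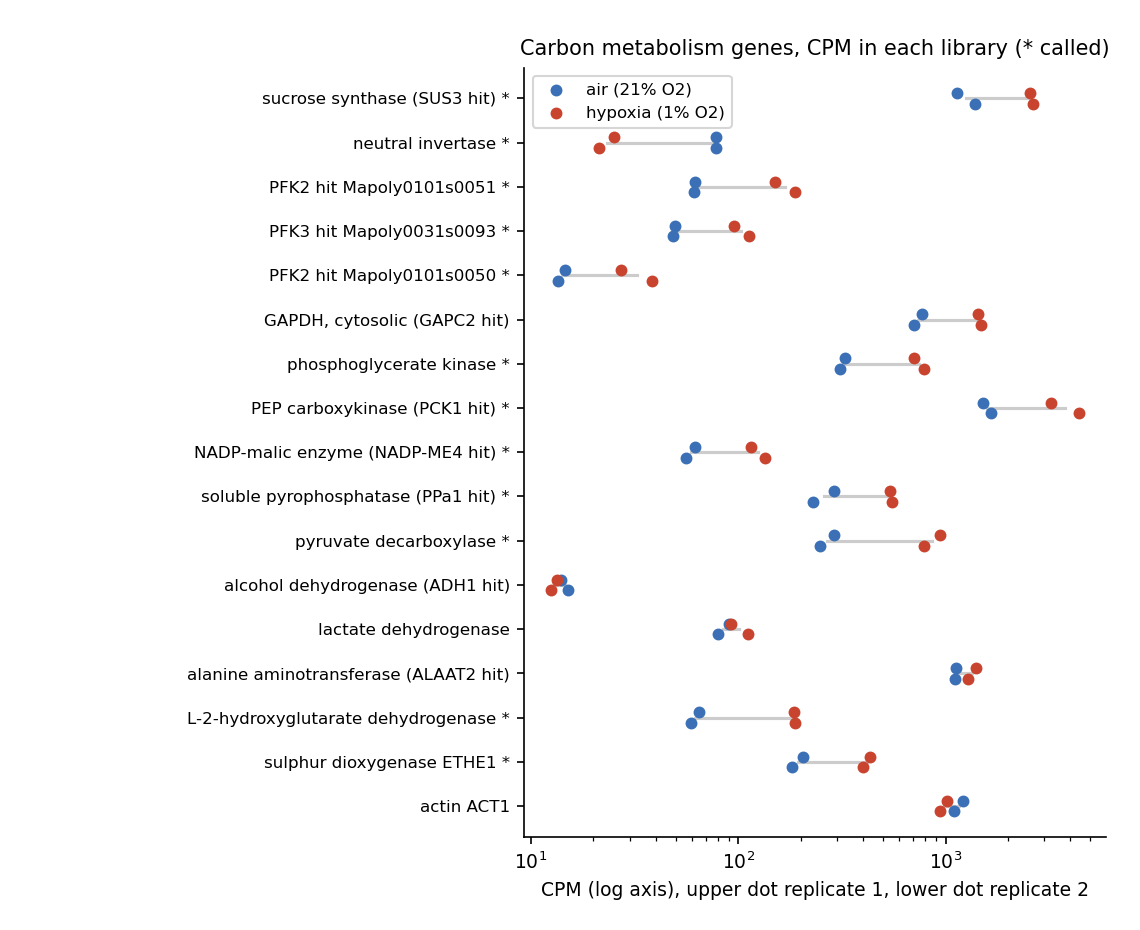
CPM of 17 loci in the 4 libraries on a logarithmic axis, with air in blue, hypoxia in red, replicate 1 above replicate 2, and a grey bar between the geometric means of the groups; an asterisk marks a called gene. Pyruvate decarboxylase moved from 289 and 249 to 944 and 789 CPM, whereas the alcohol dehydrogenase locus stayed between 12.5 and 15.2 CPM.

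No locus on the citric acid cycle list was called. Of its 29 loci, 23 lay above air in both hypoxia libraries and 2 below, against 30.1% and 30.4% of all genes. Their median log2 fold change was 0.22, and it stayed between 0.15 and 0.20 when any single library was left out. At an unadjusted p under 0.05 by limma, 10 of the loci were higher and 1 lower. Mapoly0206s0010, of the malate dehydrogenase family, stood highest of those named, with 403 and 385 CPM in air and 664 and 703 under hypoxia (log2 fold change 0.79). The citrate synthase locus Mapoly0063s0010 (CSY4 hit) had 248 and 264 against 405 and 403 CPM (log2 fold change 0.66). Both were picked after values were seen, and both had a limma adjusted p below the threshold, at 0.0035 and 0.0052, with a fold change under it. The most expressed member, Mapoly0112s0021 of the isocitrate dehydrogenase family, had a log2 fold change of 0.41. The descriptions of its hit and of that of Mapoly0206s0010 name a family only. Forms of these dehydrogenases outside the cycle cannot be told apart from those within it.

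The respiratory chain stayed near its level in air. None of 34 loci for complexes I, III and IV and ATP synthase was called. Their median log2 fold change was -0.01, with a range from -0.32 to 0.49. At an unadjusted p under 0.05 by limma, 4 were above and 0 below air, which was not set against a share of all genes. The Rieske protein locus Mapoly0015s0091 of complex III was at 324 and 310 CPM in air and 323 and 305 under hypoxia. Electrons can also enter or leave the chain by side routes. Among 18 loci for these routes 2 rose and 1 fell, against 1.47% and 1.35% of all genes. L-2-hydroxyglutarate dehydrogenase (MpL2HGDH, Mapoly0085s0100), which oxidises a by-product of 2-oxoglutarate reduction, rose from 65.1 and 59.4 to 185 and 188 CPM. Its log2 fold change of 1.57 ± 0.098 had a limma adjusted p of 0.00066, the smallest value of the comparison, which it shared with other genes. ETHE1 (Mapoly0002s0284), a mitochondrial dioxygenase that uses O2 to oxidise sulphur from cysteine, rose from 206 and 182 to 434 and 399 CPM (log2 fold change 1.10 ± 0.11, limma adjusted p = 0.0014).

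In the same list, the called decrease was at an enzyme of branched-chain amino acid breakdown. Mapoly0027s0073, whose best hit is an E1 alpha subunit of the branched-chain 2-oxo acid dehydrogenase in *A. thaliana*, fell from 142 and 162 to 77.7 and 45.9 CPM, by 1.33 on the log2 scale. Mapoly0006s0123, with the same best hit, had a log2 fold change of -0.58, and the acyltransferase subunit Mapoly0127s0040 had -0.57. Neither of these was called, and both were picked after values were seen. Alternative oxidase, which passes electrons from ubiquinol to O2 and bypasses the pumps, had 2 loci. Mapoly0009s0095, picked after values were seen, was at 149 and 161 CPM in air and 244 and 235 under hypoxia (log2 fold change 0.63), while Mapoly0016s0007 was at 348 and 331 against 421 and 294. Air and hypoxia overlapped at the latter. Of the called loci for side routes, MpL2HGDH kept its call whichever library was left out, ETHE1 lost it without either air library, and Mapoly0027s0073 lost it without either air library and without hypoxia replicate 2.

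No locus of the oxygen-sensing list was called. Of its 11 loci, 8 lay above air in both hypoxia libraries and 1 below, against 30.1% and 30.4% of all genes. The median log2 fold change was 0.20. At an unadjusted p under 0.05 by limma, 5 were higher and none lower. The plant cysteine oxidase locus Mapoly0070s0038 had 78.3 and 66.2 CPM in air and 125 and 127 under hypoxia, a log2 fold change of 0.80 (limma adjusted p = 0.0029). HB1 hits, for the haemoglobins that scavenge nitric oxide, were found at 3 loci. Mapoly0104s0016 had 155 and 157 CPM in air and 278 and 305 under hypoxia, Mapoly0104s0018 had 74.2 and 77.8 against 134 and 155, and their log2 fold changes were 0.90 and 0.92. Mapoly0014s0083 had 0.34. In the N-degron route, the arginyl transferase locus Mapoly0067s0057 (ATE1 hit) had 0.61 and both loci for the ubiquitin ligase PRT6 had -0.17 and 0.20. The most expressed member of the list, BIG hit Mapoly0031s0115, had -0.11. The cysteine oxidase, haemoglobin and ATE1 loci were picked after values were seen. Without hypoxia replicate 1, 1 of the 11 loci was called higher.

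MpERF18 (Mapoly0092s0058, HRE1 hit) resembles the ERFVII factors of flowering plants but lacks the N-terminal cysteine through which those are marked for breakdown. It was at 175 and 163 CPM in air and 235 and 218 under hypoxia, a log2 fold change of 0.42 ± 0.10 (limma adjusted p = 0.027), and was not called. HRE2 hit Mapoly0023s0075, picked after values were seen, had 47.8 and 52.7 against 63.1 and 68.8 CPM, a log2 fold change of 0.39. MpERF23 was not analysed here. Best hits among the core low-oxygen genes of *A. thaliana* were found at 12 loci. Of these, 2 rose and none fell, against 1.47% and 1.35% of all genes, and the median log2 fold change was 0.40. The loci that rose were ETHE1 and the PFK3 hit, which are already counted on lists above. Of the 4 loci matched to AT1G19530, a gene of that core set with no description in the table, Mapoly0037s0069 had 536 and 497 CPM in air and 791 and 779 under hypoxia (log2 fold change 0.60). The other loci, picked after values were seen, had -0.11, -0.44 and -0.59. The actin gene ACT1 (Mapoly0016s0137), a common reference, was at 1215 and 1099 CPM in air and 1020 and 945 under hypoxia (log2 fold change -0.23, limma adjusted p = 0.28).

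On the list of enzymes that use O2 as a substrate, more loci were called lower than higher. Of 175 loci, 5 rose and 15 fell, against 1.47% and 1.35% of all genes, and 155 were not called. The median log2 fold change was -0.14. In both hypoxia libraries 77 lay below air and 43 above, against 30.4% and 30.1% of all genes. The summed level of the list was higher under hypoxia, at 9400 and 9898 CPM in air and 11276 and 10550 under hypoxia. ETHE1 and the cysteine oxidase locus also use O2 and stand on other lists. Families differed in what they showed. All 6 called loci among the 15 lipoxygenases, 6 carotenoid cleavage dioxygenases and 2 copper oxidases fell, whereas both called loci among the 3 stearoyl-ACP desaturases and 13 membrane desaturases and hydroxylases rose. Cytochromes P450 had 2 higher and 8 lower of 92, and oxygenases dependent on 2-oxoglutarate and iron had 1 and 1 of 44. Without air replicate 1 the list held 0 higher and 3 lower calls, and without air replicate 2 none. Without hypoxia replicate 1 it held 7 and 28, and without hypoxia replicate 2 it held 5 and 12.

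Within the list of oxygen-using enzymes, the largest decreases were in carotenoid cleavage dioxygenases and lipoxygenases. NCED5 hit Mapoly0149s0036, for the dioxygenase that cuts a carotenoid to the precursor of abscisic acid, fell from 42.8 and 61.7 to 12.1 and 7.92 CPM, by 2.28 ± 0.22 on the log2 scale (limma adjusted p = 0.0011). Its mean level was 5.23-fold lower under hypoxia. CCD1 hit Mapoly0066s0017 fell from 15.0 and 17.2 to 3.9 and 3.29 CPM, and a further CCD1 hit, Mapoly0056s0019, picked after values were seen, fell by 1.14 on the log2 scale. Lipoxygenases add O2 to polyunsaturated fatty acids. LOX1 hit Mapoly0083s0028 fell from 96.7 and 112 to 30.6 and 34.2 CPM (log2 fold change -1.65, limma adjusted p = 0.00069), and LOX1 hit Mapoly0420s0001 fell from 7.98 and 5.66 to 1.23 and 0.886 CPM. A copper amine oxidase locus, Mapoly0002s0179, for an enzyme that oxidises amines and releases hydrogen peroxide, fell from 51.5 and 53.7 to 15.1 and 13.9 CPM (log2 fold change -1.79). At each of these 6 loci the air libraries lay above both hypoxia libraries.

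Among cytochromes P450, 8 loci fell by between 1.08 and 1.36 on the log2 scale. CYP75B1 hit Mapoly0142s0024, of the flavonoid hydroxylases, went from 64.1 and 59.2 to 25.7 and 21.3 CPM. Mapoly0031s0060, with the same best hit and the highest mean CPM of the oxygen-using list, was at 753 and 779 CPM in air and 1070 and 828 under hypoxia (log2 fold change 0.30) and was not called. CYP707A1 hit Mapoly0009s0139, of the enzymes that inactivate abscisic acid in *A. thaliana*, went from 20.8 and 19.7 to 9.47 and 8.46 CPM. CYP704B1 hit Mapoly0063s0016, a fatty acid hydroxylase of spore and pollen walls in *A. thaliana*, rose from 6.99 and 5.17 to 16.5 and 17.6 CPM (log2 fold change 1.36). The sterol desaturase locus Mapoly0103s0038 (CYP710A1 hit) rose from 332 and 333 to 670 and 691 CPM (log2 fold change 1.03). All but the CYP704B1 hit and Mapoly0031s0060 were picked after values were seen.

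Called increases were also found among desaturases. Mapoly0246s0004, a stearoyl-ACP desaturase that places the first double bond into plastid fatty acids, rose from 411 and 378 to 855 and 865 CPM, a log2 fold change of 1.12 ± 0.12 (limma adjusted p = 0.0014). A further stearoyl-ACP desaturase, Mapoly0024s0114, had a log2 fold change of 0.85, was not called and was picked after values were seen. FAD4 hit Mapoly0034s0071, for a plastid lipid desaturase, went from 5.42 and 6.83 to 16.0 and 16.4 CPM. The oxygenase Mapoly0007s0174, dependent on 2-oxoglutarate, went from 101 and 93.2 to 200 and 201 CPM. Outside the list, PAO hit Mapoly0046s0012, for the pheophorbide oxygenase of chlorophyll breakdown, rose from 188 and 187 to 446 and 426 CPM (log2 fold change 1.21, limma adjusted p = 0.00093). ERO2 hit Mapoly0142s0031, for an endoplasmic reticulum oxidase that forms disulphide bonds with O2, rose from 37.8 and 36 to 95.7 and 105 CPM (log2 fold change 1.42). These loci, from the FAD4 hit on, were picked after values were seen.

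**Figure D3:**
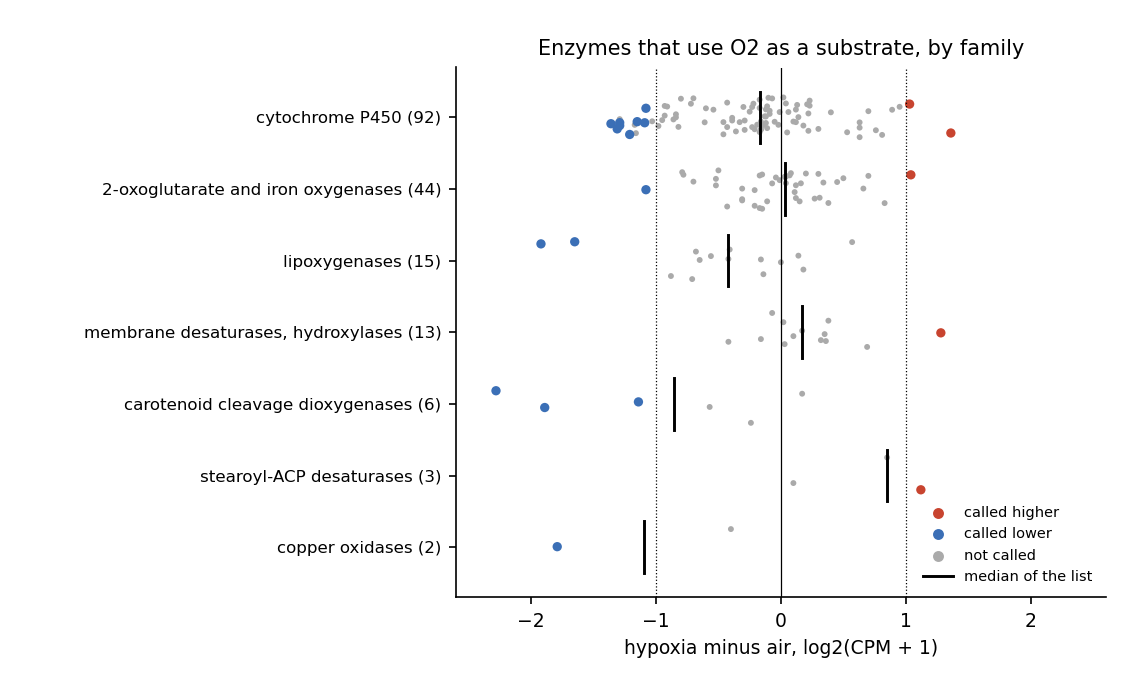
Log2 difference of hypoxia minus air (horizontal axis) for each of the 175 loci of oxygen-using enzymes by family, with called increases in red, called decreases in blue, other loci in grey and the median of each family as a bar. Carotenoid cleavage dioxygenases (median -0.86) and lipoxygenases (median -0.42) lie mostly left of 0, and stearoyl-ACP desaturases (median 0.85) right of it.

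Small heat shock proteins, chaperones that bind unfolded proteins, included the largest increase of the comparison. Of 26 loci, 8 rose and none fell, against 1.47% and 1.35% of all genes. In both hypoxia libraries 20 lay above air, against 30.1% of all genes, and the median log2 fold change was 0.94. HSP17.6A hit Mapoly0010s0142 had 7.56 and 5.25 CPM in air and 32.3 and 58.9 under hypoxia, a log2 fold change of 2.61 ± 0.26 (limma adjusted p = 0.0013). Its neighbours Mapoly0010s0143 and Mapoly0010s0144 had identical values, 3.54 and 3.31 against 17.2 and 28.5 CPM, so reads shared between near-identical copies cannot be told apart there and the pair may count as 1 measurement. HSP21 hit Mapoly0045s0146, matched to a chloroplast form, went from 30.1 and 23.3 to 81.6 and 125 CPM, a log2 fold change of 1.89. HSP20-like loci Mapoly0076s0003 and Mapoly0076s0004 rose by 2.22 and 1.70 on the log2 scale. Mapoly0075s0028 and Mapoly0010s0145, picked after values were seen, rose by 1.24 and 1.15. The most expressed member, Mapoly0051s0013, had 197 and 188 CPM in air and 250 and 228 under hypoxia and was not called.

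Of the 26 loci, 13 had a log2 fold change above 1. The 5 without a call included Mapoly0076s0005, picked after values were seen, with 3.62 and 2.99 CPM in air and 5.27 and 16.2 under hypoxia, next to the called pair at Mapoly0076s0003 and Mapoly0076s0004. In each called locus hypoxia replicate 2 was above hypoxia replicate 1. The 26 loci summed to 921 and 845 CPM in air and 1238 and 1488 under hypoxia. Without hypoxia replicate 2, 7 loci stayed above 1 and 6 were called, and the median was 0.61. Without hypoxia replicate 1, 13 were called. Without either air library 13 stayed above 1 and none was called.

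**Figure D4:**
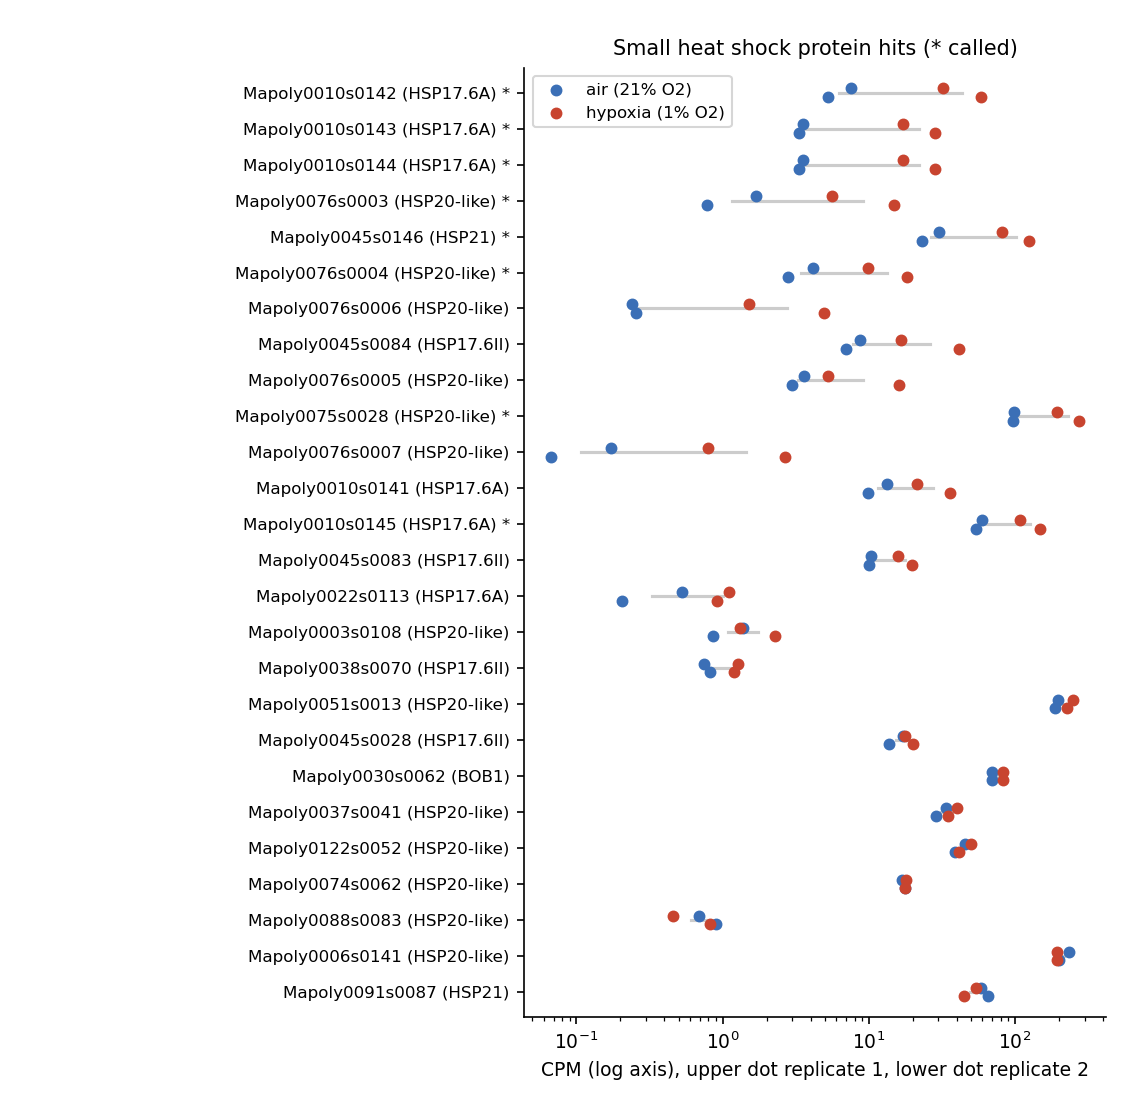
CPM of the 26 small heat shock protein loci in each library on a logarithmic axis, ordered by log2 fold change, with air in blue, hypoxia in red, replicate 1 above replicate 2 and a grey bar between the geometric means; an asterisk marks the 8 called loci. The top locus, Mapoly0010s0142, moved from 7.56 and 5.25 to 32.3 and 58.9 CPM.

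Of 83 other loci for chaperones and heat shock factors, 3 rose and 1 fell, against 1.47% and 1.35% of all genes. Their median log2 fold change was 0.05. HSP101 hit Mapoly0033s0015, which pulls apart protein aggregates, rose from 46.3 and 49.4 to 165 and 263 CPM, a log2 fold change of 2.10 ± 0.19 (limma adjusted p = 0.001). The chloroplast HSP70 locus Mapoly0110s0006 rose from 97.5 and 107 to 210 and 259 CPM, and the mitochondrial HSP60 locus Mapoly0144s0025 from 104 and 92.4 to 181 and 224. Their log2 fold changes were 1.18 and 1.03. J8 hit Mapoly0004s0037, a DnaJ protein, fell from 111 and 135 to 56.4 and 45.0 CPM (log2 fold change -1.26). The HSP90 locus Mapoly0002s0217, the most expressed of the list, had 505 and 509 against 775 and 929 CPM, a log2 fold change of 0.74, and was not called. A further 3 loci outside the list were picked after values were seen. MBF1C hit Mapoly0105s0012, a coactivator of the heat response in *A. thaliana*, rose by 1.54 on the log2 scale, the co-chaperone locus Mapoly0035s0113 (BAG6 hit) by 1.19 and the lipocalin locus Mapoly0161s0027 (TIL hit) by 1.35. Without hypoxia replicate 2 the list kept 2 higher and 1 lower call, and without either air library none.

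Proteins tied to drying and other stress were mostly not called. Of 74 loci, 4 rose and 1 fell, against 1.47% and 1.35% of all genes, with a median log2 fold change of -0.02. ERD10 hit Mapoly0056s0073, a dehydrin, rose from 167 and 170 to 491 and 496 CPM, a log2 fold change of 1.54 ± 0.10 (limma adjusted p = 0.00066). Replicates differed little at this locus, and it was among the smallest adjusted p-values. Universal stress protein loci Mapoly0003s0095 and Mapoly0130s0028 rose by 1.36 and 1.08 on the log2 scale, and all 16 loci of that family had a median of 0.08. The LEA locus Mapoly0013s0032 rose by 1.02, while the LEA locus Mapoly0006s0097 fell by 1.01. Without air replicate 1 there were 2 higher and 0 lower calls, without air replicate 2 none, and without hypoxia replicate 2 there were 3 and 7.

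Transcription factors of several families moved in both directions. Of 98 loci, 3 rose and 4 fell, against 1.47% and 1.35% of all genes. Rap2.6L hit Mapoly0166s0010, an AP2/ERF factor, rose from 23.1 and 32.3 to 92.5 and 97.1 CPM, a log2 fold change of 1.76 ± 0.15 (limma adjusted p = 0.00093). ICE1 hit Mapoly0150s0016, a bHLH factor, rose by 1.08 on the log2 scale. RAP2.4 hit Mapoly0009s0061 fell from 26.2 and 27.1 to 13.8 and 10.3 CPM, MYB33 hit Mapoly1089s0002 from 82.7 and 83.8 to 40.8 and 34.9, and MYB20 hit Mapoly0090s0091 from 31.1 and 26.1 to 12.2 and 10.9. No WRKY, NAC or LBD locus was called by limma among 13, 6 and 4, where 3 higher and 3 lower, 2 and 2, and 2 and 0 had an unadjusted p under 0.05. Outside the lists, and picked after values were seen, ABI3 hit Mapoly0474s0001, a B3 factor known from seed and desiccation programmes, rose from 25.1 and 23.7 to 80.4 and 73.7 CPM (log2 fold change 1.62, limma adjusted p = 0.00066). SIG5 hit Mapoly0007s0213, a sigma factor that directs the plastid RNA polymerase, rose from 39.8 and 41.0 to 107 and 125 CPM. Of the 7 calls of the list, that of the Rap2.6L hit alone held whichever library was left out.

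Markers of other cells were checked as well. Mapoly0019s0071 is matched to DUO1, a MYB factor of the male germline in *A. thaliana*, and was the only locus listed for that cell type. It rose from 1.91 and 2.22 to 5.68 and 6.54 CPM (log2 fold change 1.21, limma adjusted p = 0.0027). The study's methods name thalli and no reproductive organs, so this low value is not read as a sign of germline cells. Both loci matched to RSL factors, which are needed for rhizoids and root hairs, lay below air, with a summed level of 53.1 and 53.3 CPM in air and 33.4 and 33.5 under hypoxia. RSL2 hit Mapoly0048s0099 was at 42.4 and 41.4 against 25.5 and 25.2 CPM (log2 fold change -0.70, limma adjusted p = 0.0037), which is under the fold threshold. The part of a shift in cell types in the other results was not tested.

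Auxin-related loci changed in opposite directions. Of 32 loci for auxin, 3 rose and 3 fell, against 1.47% and 1.35% of all genes. The SAUR loci Mapoly0002s0086 and Mapoly0002s0085, which are neighbours, rose by 1.71 and 1.15 on the log2 scale, and Mapoly0034s0006 rose by 1.31. The SAUR locus Mapoly0035s0025 fell from 74.0 and 68.6 to 22.2 and 16.4 CPM, by 1.85 on the log2 scale, and Mapoly0060s0079 fell by 1.10. SAUR proteins are small and quickly made in response to auxin in flowering plants. None of the 4 loci on the list for ethylene and abscisic acid was called, and all 4 lay below air, 1 at an unadjusted p under 0.05 by limma. EIN4 hit Mapoly0082s0007, an ethylene receptor outside that list, was picked after values were seen and fell from 36.5 and 31.9 to 17.2 and 13.0 CPM. None of the 6 auxin-related calls held without an air library, and without hypoxia replicate 2 there were 2 higher and 3 lower.

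Of 83 loci for cell wall enzymes, 2 rose and 3 fell, against 1.47% and 1.35% of all genes. Xyloglucan enzymes had 2 higher and 0 lower of 33, with a median log2 fold change of 0.30. In both hypoxia libraries 19 of them lay above air, against 30.1% of all genes. XTH6 hit Mapoly0094s0050 rose from 52.4 and 32.4 to 144 and 231 CPM, a log2 fold change of 2.12 ± 0.25 (limma adjusted p = 0.0019). XTH15 hit Mapoly0117s0020 rose from 3.82 and 5.56 to 12.8 and 12.5 CPM. These enzymes cut and rejoin xyloglucan in the wall. The xyloglucan xylosyltransferase locus Mapoly0024s0013 (XXT1 hit), picked after values were seen, rose by 1.06 on the log2 scale. Expansins, which loosen walls, had 0 higher and 1 lower of 19, with 10 below air and a median of -0.25. Expansin A1 hit Mapoly0061s0098 fell from 72.6 and 54.2 to 30.0 and 27.5 CPM. The pectin acetylesterase locus Mapoly0004s0295 and the cellulase locus Mapoly0030s0120 (CEL2 hit) fell by 1.22 and 1.04. CESA1 hit Mapoly0076s0014, a cellulose synthase with the highest mean CPM of the list, was at 1210 and 1198 against 1775 and 1947 CPM (log2 fold change 0.63) and was not called. No cell wall call held without either air library, and 2 higher and 2 lower held without hypoxia replicate 2.

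Few phenolic and antioxidant enzymes were called, beside 1.47% of all genes that rose and 1.35% that fell. Of 49 loci for phenylpropanoids and flavonoids, 2 fell and none rose, with a median log2 fold change of -0.17. A chalcone synthase family locus, Mapoly0070s0072, matched to the enzyme that opens the flavonoid route, fell from 71.2 and 74.5 to 36.2 and 27.3 CPM. LDOX hit Mapoly0052s0090, a late flavonoid dioxygenase, fell from 26.7 and 21.8 to 10.3 and 8.88 CPM. The most expressed member, the cinnamate hydroxylase locus Mapoly0163s0018 (C4H hit), was at 907 and 940 CPM in air and 1397 and 1075 under hypoxia and was not called. Of 180 loci for peroxidases, glutathione S-transferases and catalase, 1 rose and 2 fell. The peroxidase Mapoly0211s0013 rose from 206 and 186 to 366 and 447 CPM, and the peroxidase Mapoly0009s0185 (RCI3 hit) fell from 27.9 and 35.7 to 11.0 and 7.73. The peroxidase Mapoly0064s0029, with the highest mean CPM of that list, had a log2 fold change of 0.23 and was not called. CAT2 hit Mapoly0127s0054, a catalase that removes hydrogen peroxide, fell from 39.7 and 29.4 to 13.0 and 12 CPM (log2 fold change -1.38). No call of either list held without an air library.

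Of 80 transport loci, 1 rose and 2 fell, against 1.47% and 1.35% of all genes, and 77 were not called. Among 13 sugar transporter loci, the MtN3 locus Mapoly0150s0010 rose from 4.14 and 4.36 to 10.5 and 12.6 CPM. STP7 hit Mapoly0002s0113 fell from 6.16 and 3.79 to 1.52 and 1.6 CPM (log2 fold change -1.19). STP7 hit Mapoly0064s0005 fell from 1.91 and 1.56 to 0.152 and 0.275 CPM (log2 fold change -1.17), values near the floor where the log2(CPM + 1) scale understates the change. None of 15 aquaporin loci was called. In both hypoxia libraries 11 lay below air and none above, against 30.4% and 30.1% of all genes. Their median was -0.33, and 3 were lower at an unadjusted p under 0.05 by limma. PIP1B hit Mapoly0042s0022, the most expressed transporter locus, was at 2598 and 2535 CPM in air and 2175 and 1923 under hypoxia. ABC transporters had no call among 52, with 8 above and 7 below air at an unadjusted p under 0.05. In nitrogen assimilation, NRT2.4 hit Mapoly0054s0098, a nitrate transporter, was the only called locus of 32 and rose from 0.691 and 1.32 to 3.39 and 5.08 CPM, while the glutamine synthetase locus Mapoly0061s0088 (GS2 hit) had a log2 fold change of 0.24 and was not called. No transporter call held without an air library.

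Several housekeeping processes gave no call at all by limma. Among 87 loci for light harvesting and photosystems, 188 ribosomal proteins, 63 loci for cell cycle and chromatin, 23 for starch and trehalose, 11 for chlorophyll synthesis and 3 for B12D and HIGD proteins, none rose and none fell. Medians were -0.05, -0.00, -0.08, -0.12, 0.23 and 0.16 in that order. Loci at an unadjusted p under 0.05 by limma numbered 3 higher and 9 lower, 1 and 8, 4 and 13, 5 and 6, 5 and 0, and 1 and 0. The share of all genes at that cut was not counted. Photosystem and light-harvesting loci ranged from -0.91 to 1.26, and without hypoxia replicate 1, 3 of them were called higher. LHCB2 hit Mapoly0068s0071 was at 3478 and 3154 CPM in air and 3023 and 3519 under hypoxia. In chlorophyll synthesis, 7 of 11 loci lay above air in both hypoxia libraries and none below, against 30.1% and 30.4% of all genes. CAO hit Mapoly0101s0060, an oxygenase that makes chlorophyll b, was at 179 and 180 against 313 and 343 CPM (log2 fold change 0.86), and HEMA1 hit Mapoly0036s0075, at the entry of the route, had 0.83. Both were picked after values were seen. Of the 63 loci for cell cycle and chromatin, 29 lay below air in both hypoxia libraries and 8 above, against 30.4% and 30.1% of all genes. Outside the lists, and picked after values were seen, the ferredoxin locus Mapoly3477s0001 rose by 1.35 on the log2 scale and the PGR5 hit Mapoly0121s0039, of cyclic electron flow, by 1.09.

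**Figure D5:**
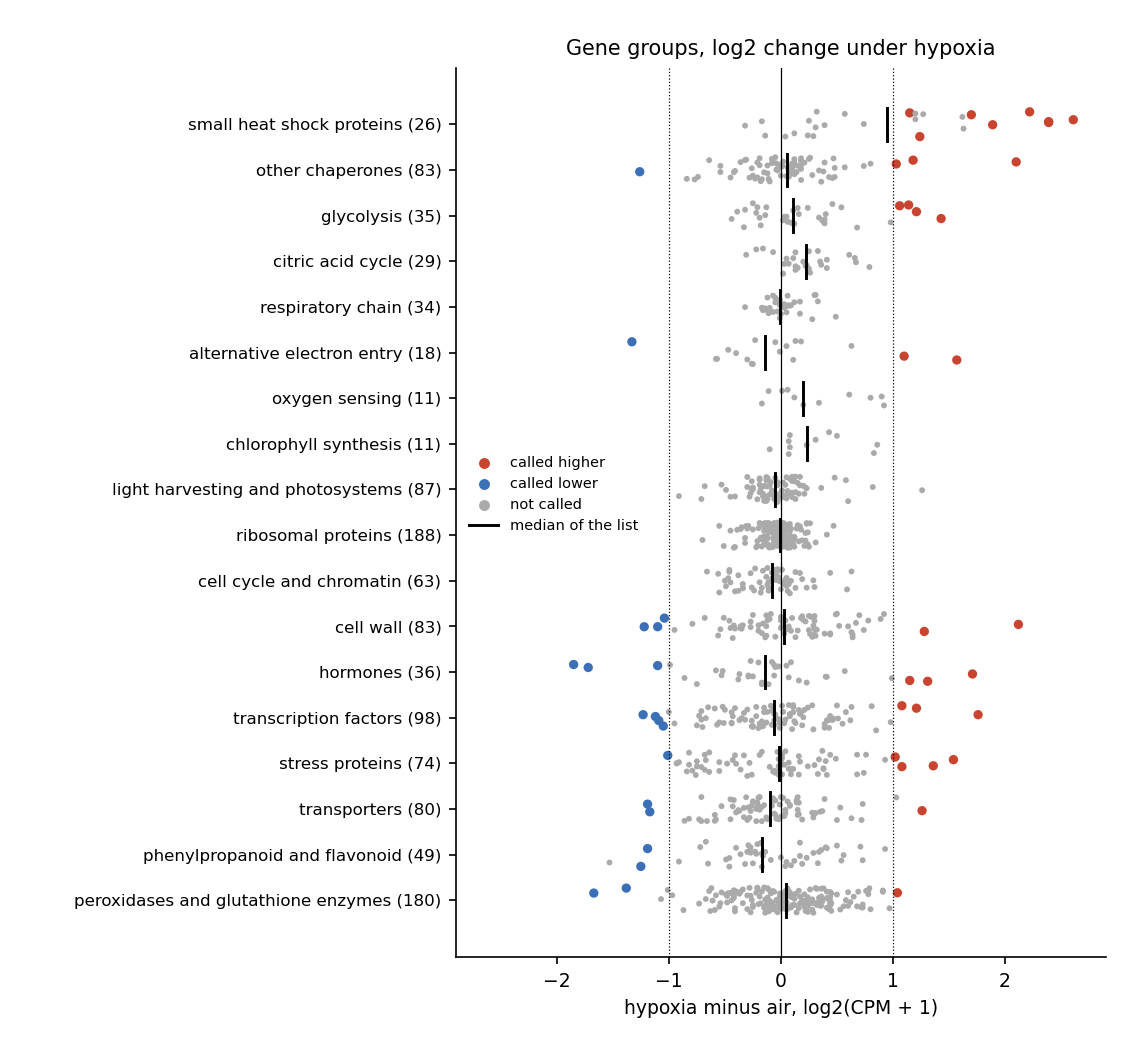
Log2 difference of hypoxia minus air (horizontal axis) for every locus of 18 gene lists, with the number of loci in brackets, called increases in red, called decreases in blue, other loci in grey and the list median as a bar. Small heat shock proteins (median 0.94) stand to the right of the other lists, and the 188 ribosomal protein loci lie between -0.70 and 0.47.

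Decreases outside these lists reached other parts of metabolism. The mitochondrial carrier Mapoly0047s0096 fell from 384 and 376 to 133 and 105 CPM (log2 fold change -1.68, limma adjusted p = 0.0008), and had the highest mean CPM among genes that fell. THIC hit Mapoly0078s0008, of thiamine synthesis, fell from 245 and 282 to 131 and 95.7 CPM. The elongation factor Tu family locus Mapoly0002s0240 fell from 359 and 256 to 147 and 116 CPM, the Rossmann-fold locus Mapoly0043s0072 from 257 and 245 to 100 and 79.0, and the UPF0497 locus Mapoly0004s0021 from 204 and 188 to 101 and 89.1. These made up the 5 called decreases of highest mean CPM. The lipase-like hydrolase Mapoly0081s0016 fell by 1.95 on the log2 scale, the peptide transporter PTR1 hit Mapoly0085s0105 by 1.92, and the pfkB-type sugar kinase Mapoly0014s0091 by 1.85.

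Many of the genes that rose have no counterpart named in the table. A best hit in *A. thaliana* was given for 77.3% of all genes, for 60.5% of those that rose and for 73.8% of those that fell, which left 79 and 48 without a hit. The largest decrease of all was of this kind. Mapoly0054s0093 fell from 21.1 and 30.3 to 3.7 and 2.2 CPM, a log2 fold change of -2.76 ± 0.23 (limma adjusted p = 0.00093). Mapoly0246s0002, 2 places from the stearoyl-ACP desaturase named above, rose from 9.79 and 8.31 to 51.1 and 47.8 CPM, a log2 fold change of 2.33 ± 0.12. Among abundant loci without a hit, Mapoly0041s0018 rose from 416 and 318 to 1271 and 1360 CPM and Mapoly0041s0020 from 549 and 551 to 1535 and 1544. Mapoly0003s0011 and Mapoly0019s0179 rose by 2.16 and 1.92 on the log2 scale. Mapoly0110s0015, Mapoly0057s0107, Mapoly0013s0039 and Mapoly0099s0032 fell by 1.89, 1.89, 1.89 and 1.87.

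Some genes that rose were next to each other in locus number. Neighbours were counted from each gene in turn, so a pair of called neighbours enters from both sides. Of 298 measured neighbours of genes that rose, 42 (14.1%) also rose and 1 (0.336%) fell, against 1.47% and 1.35% of all genes. A neighbour that also rose was found for 37 of the 200 genes. Of 225 measured neighbours of genes that fell, 18 (8.0%) also fell and 1 (0.444%) rose. A neighbour that also fell was found for 18 of the 183 genes. Runs of called loci held 4 members at Mapoly0010s0142 to Mapoly0010s0145, the HSP17.6A hits. Runs of 3 were found at Mapoly0246s0002 to Mapoly0246s0004 with the stearoyl-ACP desaturase, at Mapoly0002s0084 to Mapoly0002s0086 with the SAUR pair, and at Mapoly0062s0019 to Mapoly0062s0021. Another 12 runs of genes that rose and 9 of genes that fell held 2 loci each. Copies of a gene in tandem can share reads. Among genes above 1 CPM, 46 had the same values as another in all 4 libraries, 2 of them called higher and 4 lower, and the part of shared reads in the other runs was not tested.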

How the data were processed

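Processed mRNA values of the 4 *M. polymorpha* libraries were used, and the tables of the other species in the series were not used here. According to the study's methods, the authors trimmed reads for quality, pseudo-aligned them with Kallisto to the reference transcriptome, removed loci that exceeded 20 reads in no sample, and scaled libraries by TMM factors. Versions and the transcriptome build are not given in the sources used here. The deposited values are log2 CPM with no pseudocount, and -Inf was read as 0. Columns with the authors' own comparison, a log2 fold change and an adjusted p-value, were also deposited and were not used. CPM summed to between 969918 and 1020971 per library. The CPM step of 1 read put the depth of the air libraries at 18.7 and 24.2 M reads and that of the hypoxia libraries at 19.8 and 21.7 M, and 69.4 to 80.5% of values under 0.6 CPM were then whole reads within 0.1 read. That is too few to recover counts, so no count model was run. Loci with shared reads may be split between copies by pseudo-alignment.

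Hypoxia was compared with air on log2(CPM + 1) with limma 3.58.1 (R 4.3.3) over all 13572 genes, with a trend in the prior variance. Calls needed an adjusted p no larger than 0.01 and an absolute log2 fold change above 1. On simulated data with 200 changed genes among 13572, 97% were recovered at a log2 change of 1.5 and 99% at 2. The changed genes were drawn from those with a mean above 5 CPM, and the noise from the variance prior that limma had fitted. The recovery therefore holds for data that follow this model only. Smaller changes, where many of the called genes lie, were not simulated. Alternatives were pseudocounts of 0.1 and 5 CPM, a filter of 1 CPM in 2 libraries, library totals, relative log expression factors, no trend, a robust prior, array weights, a replicate block, an adjusted p of 0.05, no minimum fold change, and each library left out. Replicate numbers were not used as pairs, since the labels give no shared batch. Software for tables and plots was Python 3.11.15, matplotlib 3.10.9, numpy 2.4.6 and pandas 2.3.3.

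Functions are those of the best *A. thaliana* hit in the deposited table. Lists were built from those hits and their descriptions, and a locus may stand in several. Genes named singly were the 12 largest called increases and the 12 largest called decreases, the 5 called genes of highest mean CPM in each direction, up to 6 called members and the most expressed member of each list, and genes with an identifier in the paper. Other genes are said in the report to be picked after values were seen, and those named singly in the closing section or only as the ends of runs of loci were picked in the same way. The members and all lists were chosen with earlier results of these data known. Group sizes of 2 against 2 limit the precision of every value. The result of 1 named gene is not reported here.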

Additional observations from a re-analysis of the deposited data

How the results depend on the processing

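Counts of called genes moved with several choices. Against 200 higher and 183 lower, a pseudocount of 5 CPM gave 95 and 83, a prior without trend 144 and 107, and no minimum fold change 473 and 410. Leaving out 1 library gave between 5 and 271 higher and between 2 and 359 lower. Other alternatives stayed within 1.5 times of these counts, among them library totals with 168 and 206, a pseudocount of 0.1 CPM with 213 and 193, a robust prior with 196 and 166, and a replicate block with 222 and 221. Library totals moved the median log2 fold change of all genes from -0.00138 to -0.0412. Same-numbered libraries did not deviate together, with a correlation of 0.031 across 10945 genes, so the replicate block uses numbers only. All 383 called genes kept their direction under each alternative with a fit of its own, though leaving out a library cannot turn genes whose groups do not overlap. Of the values for named genes, 309 fell short of the threshold under an alternative, 207 of them with an air library left out, and 2 passed it with a hypoxia library left out. The cause was not tested.

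Direction turned only in named genes without a call and near 0. With a library left out, log2 fold changes ranged from -0.02 to 0.04 for Mapoly0002s0220, -0.16 to 0.15 for the RBCS1A hit Mapoly0011s0071, -0.05 to 0.03 for the Rieske locus Mapoly0015s0091, -0.21 to 0.31 for the AOX1A hit Mapoly0016s0007, -0.32 to 0.10 for the BIG hit Mapoly0031s0115, -0.26 to 0.04 for the histone locus Mapoly0037s0056, -0.12 to 0.15 for the ribosomal locus Mapoly0068s0058 and -0.13 to 0.09 for the LHCB2 hit Mapoly0068s0071. With library totals, Mapoly0002s0220 and Mapoly0068s0058 were at -0.03 each. At a depth of 18.7 M reads 1 read is 0.0535 CPM, so loci near 1 CPM rest on few reads.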

Other observations

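Further groups were listed after values had been seen, and their counts are descriptions. Of all genes, 1.47% rose and 1.35% fell, and 30.1% lay above and 30.4% below air in both hypoxia libraries. Phosphate handling had 5 decreases and no increase among 42 loci. The neighbouring PHT1;3 hits Mapoly0195s0008 and Mapoly0195s0007, for phosphate uptake, fell from 18.4 and 25.5 to 8.84 and 4.85 CPM and from 7.09 and 11.3 to 3.16 and 1.59. PHT2;1 hit Mapoly0126s0004 fell by 1.39 on the log2 scale, the purple acid phosphatase locus Mapoly0050s0071 (PAP7 hit) by 1.4 and the phosphodiesterase locus Mapoly0066s0011 (SRG3 hit) by 1.31. The SULTR1;1 hit Mapoly0012s0087, for sulphate uptake, fell from 152 and 156 to 67.2 and 55.0 CPM. Among 52 amino acid and peptide transporters 6 fell, none rose, and 34 lay below air in both hypoxia libraries against 5 above. Neither these 6 calls nor the 5 for phosphate held without an air library. NFD4 hit Mapoly0116s0043, a carrier-like membrane protein, fell from 141 and 162 to 53.2 and 37.0 CPM.

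Loci matched to enzymes of gibberellin metabolism had 3 decreases among 17, with 12 below air and none above. Of these decreases, CPS and KO hits belong to synthesis, and the GAMT2 hit is matched to a methyltransferase that inactivates gibberellins in *A. thaliana*. CPS hit Mapoly0046s0122 went from 15.5 and 11.2 to 4.51 and 4.48 CPM, KO hit Mapoly0130s0002 from 27.0 and 25.5 to 11.8 and 9.7, and GAMT2 hit Mapoly0038s0025 from 15.9 and 14.2 to 4.71 and 2.65. In abscisic acid metabolism, NCED5 and CYP707A1 hits fell among 10 loci, 7 lay below air and none above. Germin-like proteins and cupins had 6 decreases among 56 loci, with 27 below air. They included the GLP5 hit Mapoly0930s0001, which fell from 29.8 and 40.1 to 13.4 and 7.03 CPM. Mapoly0010s0107 and Mapoly0010s0111 had identical values in all libraries and may count as 1 measurement. Without hypoxia replicate 1, 19 of the germin-like loci were called lower.

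Exordium-like proteins, linked to cell growth in *A. thaliana*, had 4 increases and 1 decrease among 17 loci. EXL2 hit Mapoly0062s0017 rose from 106 and 97.7 to 252 and 384 CPM. EXL2 hits Mapoly0038s0084 and Mapoly0038s0086 rose by 1.41 and 1.23 on the log2 scale, and the PHI-1 hit Mapoly0062s0021 by 1.15. A further EXL2 hit, Mapoly0067s0053, fell from 92.6 and 71.9 to 31.8 and 25.7 CPM, so loci with the same best hit moved in opposite directions. No call among them held without an air library, and 2 increases and the decrease held without hypoxia replicate 2. Malate synthase locus Mapoly0154s0035, of the glyoxylate cycle, fell from 151 and 143 to 78.8 and 49.8 CPM (log2 fold change -1.22), and its log2 fold change without hypoxia replicate 2 was -0.89. Kelch repeat proteins had 5 increases and 3 decreases among 103 loci, leucine-rich repeat kinases 2 and 3 among 135, and patatins and lipases 0 and 3 among 94. Beside the 1.47% and 1.35% of all genes, no result about these families is drawn from the counts.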
